A study of Homo sapiens with 65 samples.

Results

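SOX17+ CD34+ CD43- endothelial cells of the reporter line called WT were compared between day 12 and day 7 of a differentiation of human embryonic stem cells towards blood-forming mesoderm. The members were chosen by title: the libraries d12 RX WT SOX17pos34pos43neg, replicates 1 to 4, against d7 RX WT SOX17pos34pos43neg, replicates 1 to 4. They are 8 of the 65 libraries of the series. The cells derive from H9, an established embryonic stem cell line, and carry the reporter alleles SOX17 mCHERRY/w RUNX1C GFP/w. The WT line thus carries edited alleles itself. The line called KO carries the same reporters and is RUNX1 -/-, with the part of RUNX1 that encodes its DNA-binding domain deleted. Its 8 libraries of the same gate and days are set beside WT at the end, and both lines went through 1 protocol, meant to give a fate like that of the aorta-gonad-mesonephros region. In STAPEL medium the cells had BMP4 (20 ng/ml), activin A (7.5 ng/ml), VEGF (25 ng/ml), SCF (50, labelled as mg/ml) and FGF2 (10 ng/ml) from day 0 to 4, with SB431542 and CHIR 99021 (3 µM each) from day 2. From day 4 to 8 they had VEGF, SCF, FGF2 and IGF2 (25 ng/ml). The labels name no medium after day 8, so cells of day 12 may differ from those of day 7 in medium as well as in age. Total RNA was sequenced from TruSeq libraries, and the 8 libraries held 14791973 to 18554432 counts each. Nothing in the labels says whether replicates were separate cultures, so p-values measure the spread between these libraries.

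SOX17 is a transcription factor of arterial and blood-forming endothelium, CD34 is a surface protein of endothelium and of blood progenitors, and CD43, encoded by SPN, appears when cells commit to blood. In the embryo, blood stem cells bud from arterial endothelium that switches on RUNX1, while most endothelium goes on to form arteries, veins, lymphatics and the sinusoids of the liver. Endothelial cells read flow, VEGF, Notch, BMP and retinoic acid, and they leave the cell cycle as vessels mature.

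Between the days 4090 of 22978 tested genes changed (17.8 %), 1970 upward (8.57 %) and 2120 downward (9.23 %), at an adjusted p under 0.05 in edgeR's quasi-likelihood test. The median log2 fold change of all tested genes, always day 12 over day 7, was -0.0058. For 5993 genes (26.1 %) the 4 libraries of one day lay apart from the 4 of the other. Each change stands as log2 fold change ± its standard error. Levels stand in CPM, counts scaled to the library's TMM-adjusted size, in the order of replicates 1 to 4 or as mean ± SD over 4 libraries. Gene lists are described by how many of their tested members passed this test, to be read against the shares above. Without WT day 12 replicate 3 the total was 2822, the lowest with 1 library left out, and with the replicate numbers as a block, in a fit of the 8 libraries alone, it was 6825. A gene that loses its call is named with the library or setting that ends it and the adjusted p there. For an uncalled gene that passes with the block or in more of the other fits, the adjusted p there is given as well, and for a list count that the block moves by over 1.5 times, the numbers that rose and fell with it follow in brackets. Other settings were DESeq2, limma on the authors' deposited log2 RPKM values, other size factors, no filter on low counts and a fit of the 8 libraries alone.

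**Figure D1:**
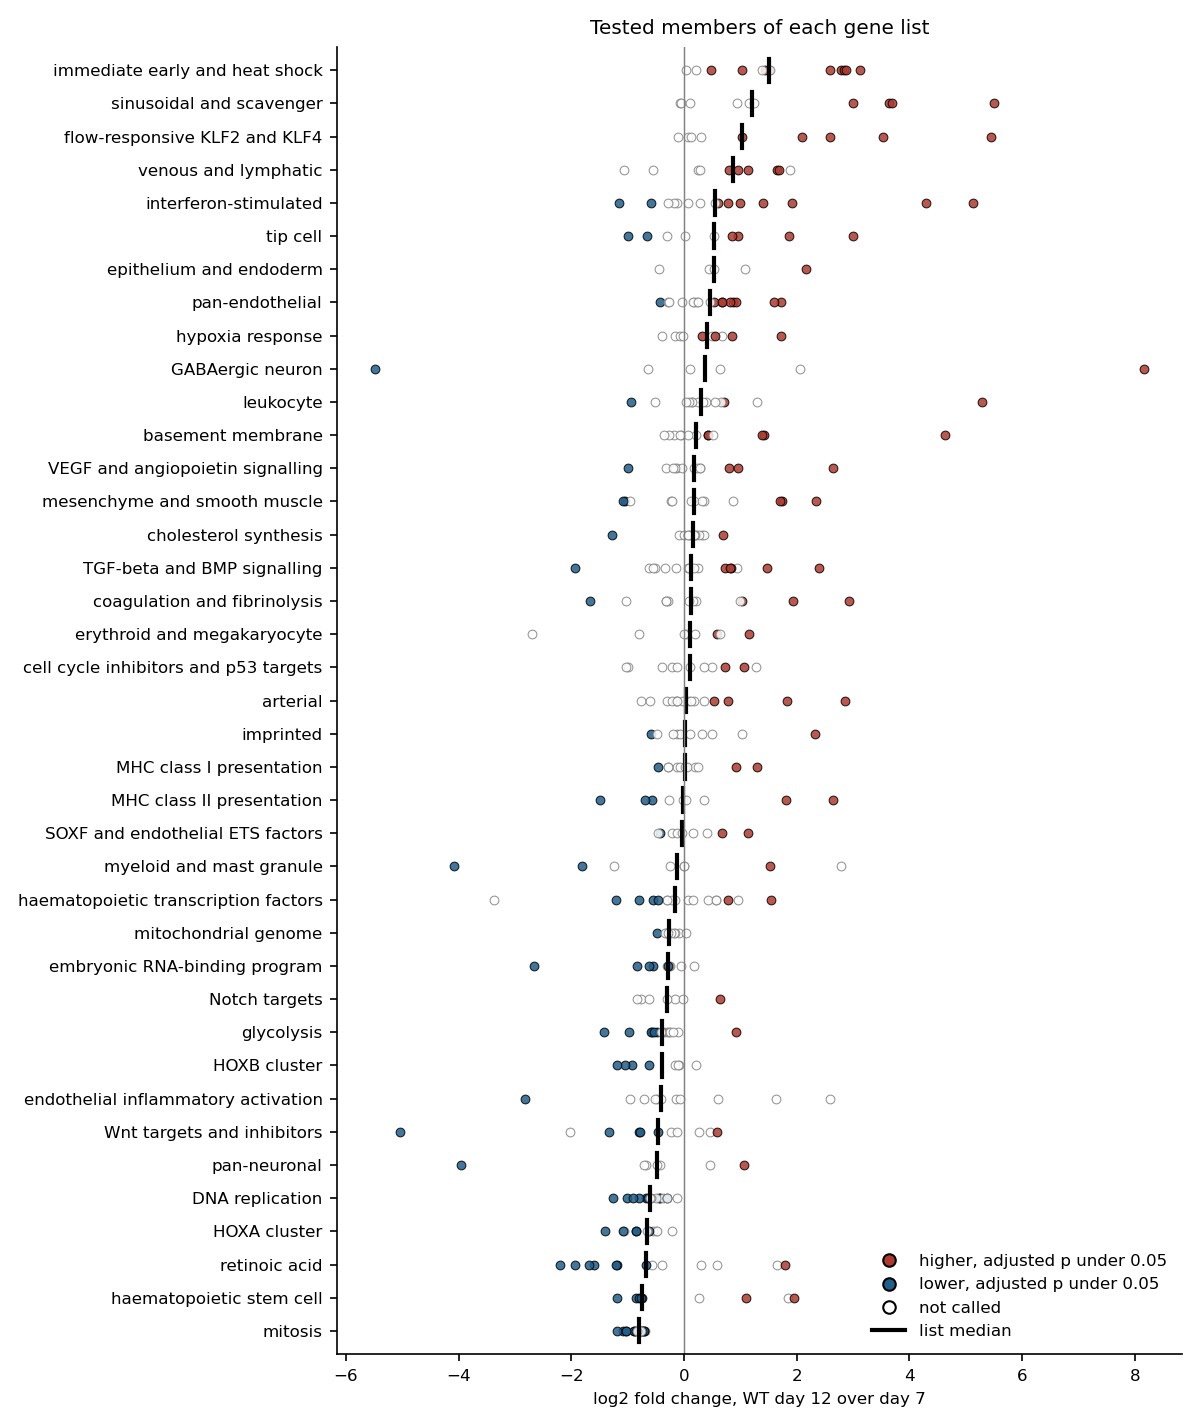
Log2 fold change (day 12 over day 7, WT) of each tested member of the gene lists, with 1 line of points per list ordered by its median (black bar). Red points passed upward and blue points downward at an adjusted p under 0.05, and open points did not pass. Lists of immediate early, sinusoidal and flow-responsive genes lie highest, and those of mitosis, haematopoietic stem cells, retinoic acid, HOXA and DNA replication lie lowest.

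In the plot of the gene lists, medians ran from -0.801 for mitosis to 1.503 for immediate early and heat shock genes. The largest single change among list members was the rise of LHX6, and the largest fall was that of GAD1, both from the list of GABAergic neurons.

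The gate itself was checked first. SOX17, at 170, 172, 152 and 226 CPM at day 7 and 186, 157, 136 and 185 at day 12, gave -0.12 ± 0.205 (adjusted p = 0.749). SPN was at 1.94, 2.34, 1.54 and 1.81 CPM at day 7 and 2.002, 3.51, 2.83 and 1.58 at day 12. Its mean was 265 CPM in the SOX17+ CD43+ cells of day 12, which had only 2 libraries. CD34 was at 1209, 1287, 1052 and 1248 CPM at day 7 and 1792, 1943, 1728 and 1516 at day 12 and gave 0.54 ± 0.196 (adjusted p = 0.0553, 0.00128 to 0.0464 in 5 other fits). SOX17 and SPN overlapped between the days, while CD34 did not overlap, and its call depended on the fit, passing in 5 of the others.

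All 17 endothelial markers were detected in all 8 libraries, and they summed to 12989 to 14371 CPM at day 7 and 14851 to 17902 at day 12. Of them 8 rose and 1 fell of 17 tested (10 and 2 with the block), with a median log2 fold change of 0.45. CLDN5, the claudin of endothelial tight junctions, was at 93.5, 142, 113 and 128 CPM at day 7 and 296, 449.9, 406 and 428 at day 12, a change of 1.73 ± 0.23 (adjusted p = 3.97e-06). ROBO4, a guidance receptor that stabilises vessels, rose by 1.596 ± 0.31, ESAM, a junction adhesion molecule, by 0.87 ± 0.16, and the sialomucin EMCN by 0.92 ± 0.25. CLEC14A, a lectin of vessel walls, and CDH5, the cadherin of endothelial junctions, rose by 0.82 ± 0.26 and 0.67 ± 0.23. Of these risers CLDN5, ESAM and CDH5 belong to cell junctions. FLI1, an ETS factor of endothelium and blood, was the single member that fell, from 485 ± 21.5 to 359.5 ± 34.9 CPM (-0.43 ± 0.098). KDR, the main VEGF receptor, gave 0.18 ± 0.33 (adjusted p = 0.761), TIE1 0.22 ± 0.13 (adjusted p = 0.243, 0.0355 with the block) and EGFL7 0.45 ± 0.19 (adjusted p = 0.0924, 0.00195 to 0.0451 in 3 other fits). CLEC14A lost its call without day 7 replicate 1, 2 or 3 or day 12 replicate 4 (0.0616 to 0.143), and CDH5 with any library left out but day 12 replicate 1 (0.0511 to 0.102).

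Markers of several other cell types were detected. The 14 leukocyte markers summed to 178 to 225 CPM at day 7 and 177 to 231 at day 12. At day 12 they summed to 1659.7 to 2039.8 in SOX17+ CD43+ cells (2 libraries) and 3855 to 4572 in SOX17- CD43+ cells (3 libraries). Of the 10 myeloid and mast cell granule genes, PRTN3, ELANE, TPSAB1 and CLC had no count in the 8 libraries, and of the 14 erythroid and megakaryocyte genes HBZ, HBG1 and PPBP had none. Mesenchyme and smooth muscle markers summed to 513 to 834 CPM at day 7 and 529.7 to 746 at day 12, below the 1154 to 1864 of SOX17- CD43- cells of day 7 and above the 369.5 to 460.4 of SOX17+ CD43+ cells of day 12. Those of epithelium and endoderm summed to 6.13 to 12.1 and 9.34 to 16.1, with AFP at 0. In sorted bulk samples fewer cells of a type and less RNA per cell cannot be told apart. The part of any such cells in the results below was not tested.

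The 4 genes given to mark the comparison were chosen with its result known and are described first. LYVE1 (GRCh38 chr11:10556966-10611689, minus strand), the hyaluronan receptor of lymphatic and sinusoidal endothelium, was at 4.51, 4.13, 2.398 and 1.56 CPM at day 7 and 38.98, 158, 227 and 144 at day 12. All 4 libraries of day 12 lay above all of day 7, with replicate 1 the lowest of day 12, and the change was 5.5 ± 0.67 (adjusted p = 1.60e-06). LYVE1 overlaps the protein-coding gene IRAG1 on the same strand. KLF4 (chr9:107484852-107490482, minus strand), a zinc finger factor that endothelium induces under laminar flow, was at 1.44, 3.51, 9.38 and 1.56 CPM at day 7 and 67.2, 241, 327 and 70.6 at day 12. Its change was 5.44 ± 0.69 (adjusted p = 2.81e-06), and replicates 2 and 3 were the highest libraries on both days.

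LHX6 (chr9:122202577-122229626, minus strand), a LIM homeobox factor best known from cortical interneurons, went from 0, 0.247, 0.1599 and 0.0602 CPM, 8 counts in all, to 17.7, 56.9, 49.6 and 19.9 CPM. The change was 8.16 ± 0.67 (adjusted p = 3.47e-09). GAD1 (chr2:170813213-170861151, plus strand), the enzyme that makes GABA, ran the other way, at 113, 111, 109 and 92.5 CPM at day 7 and 3.39, 1.32, 1.39 and 3.43 at day 12. Its groups did not overlap either, and its change was -5.48 ± 0.44 (adjusted p = 2.01e-09). The list of GABAergic neurons had these 2 calls among 6 tested (12 listed), and GAD2, LHX8 and NKX2-1 had no count in the 8 libraries. SLC32A1, the vesicular GABA transporter, gave -0.64 ± 0.304 (adjusted p = 0.154). Of the 10 pan-neuronal genes TUBB3, a tubulin, rose by 1.07 ± 0.36. ELAVL4, an RNA-binding protein of neurons, had 40 counts over day 7 and 2 over day 12, a ratio in CPM of 19.2 (95 % counting interval 4.99 to 164) lower. Such intervals cover counting error only, and not the spread between libraries. TUBB3 lost its call without day 7 replicate 1, 3 or 4 or day 12 replicate 2 or 3 (0.0541 to 0.173), and ELAVL4 in limma on log2 RPKM (0.11).

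In the other sorted fractions of WT the marker genes took other levels. These means rest on 2 libraries of SOX17+ CD43+ cells and 3 of SOX17- CD43+ cells. LYVE1 had a mean of 2.37 CPM in SOX17- CD43- cells of day 7, 76.2 in SOX17+ CD43+ cells of day 12 and 12.5 in SOX17- CD43+ cells of day 12. The corresponding means were 4.49, 107 and 35.3 CPM for KLF4 and 0.685, 18.6 and 1.95 CPM for LHX6. GAD1 had 176, 6.03 and 14.7 CPM. GAD1 was thus high in both sorted fractions of day 7 and low in the 3 of day 12, whereas LYVE1, KLF4 and LHX6 were highest in the SOX17+ fractions of day 12. No test was run between these fractions.

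**Figure D2:**
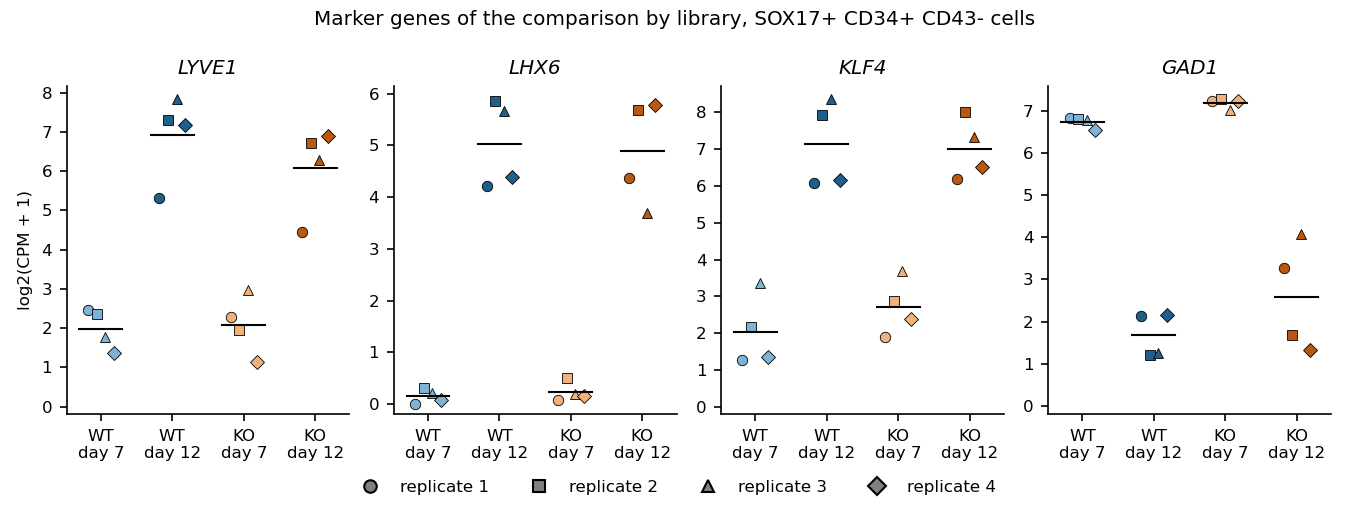
Level of LYVE1, LHX6, KLF4 and GAD1 in each SOX17+ CD34+ CD43- library, as log2(CPM + 1), by line and day. Points are libraries, with the shape giving the replicate number, and bars are group means. In both lines LYVE1, LHX6 and KLF4 lie higher and GAD1 lower in all 4 libraries of day 12.

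Most arterial genes did not pass. Of the arterial list 4 rose and 0 fell of 16 tested (5 and 3 with the block), with a median log2 fold change of 0.033. GJA5, the gap junction protein of arterial endothelium, was at 122, 117, 109 and 268 CPM at day 7 and 731, 216, 265 and 982 at day 12 and rose by 1.83 ± 0.53 (adjusted p = 0.0164), although replicate 4 of day 7 reached into the range of day 12. NOTCH4, the Notch receptor largely limited to endothelium, went from 347 ± 45.3 to 595 ± 74.97 CPM (0.78 ± 0.19), and the ligand JAG2 from 132 ± 22.2 to 190.1 ± 6.65 CPM (0.53 ± 0.15). BMX, a kinase of large arteries, went from 0.2804 ± 0.1602 to 2.09 ± 1.15 CPM (2.85 ± 0.47) and overlaps PIR on the opposite strand. EFNB2, the ephrin that defines arteries, gave 0.080 ± 0.24 (adjusted p = 0.867), NRP1 -0.13 ± 0.23 (adjusted p = 0.76) and NOTCH1 0.35 ± 0.16 (adjusted p = 0.152, 0.00443 to 0.0081 in 2 other fits). Without day 7 replicate 3, 2 arterial members rose. GJA5 lost its call without day 7 replicate 1, 2 or 3 or day 12 replicate 4 (0.0514 to 0.083), and JAG2 without day 7 replicate 3 (0.0646).

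Notch target genes did not follow NOTCH4 and JAG2. Of 7 tested targets (8 listed) HES1, a repressor induced by Notch in many tissues, rose by 0.64 ± 0.16, and the list's median was -0.29. HEY1, a main arterial target, was at 78.4, 58.3, 56.8 and 95.1 CPM at day 7 and 97.7, 40.8, 48.03 and 99.2 at day 12 and gave -0.015 ± 0.31 (adjusted p = 0.985). HEY2 gave -0.77 ± 0.42 (adjusted p = 0.228, 0.00711 with the block), lower in all 4 replicate pairs, and the ligand DLL4 -0.29 ± 0.27 (adjusted p = 0.513, 0.0478 with the block). With the block 4 of the list fell.

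Among SOXF and endothelial ETS factors, ETS2 and ELK3 rose by 1.14 ± 0.17 (adjusted p = 2.39e-05) and 0.68 ± 0.11 (adjusted p = 3.90e-05). ETS2 was at 161, 192, 193 and 144 CPM at day 7 and 306, 479.6, 443 and 291 at day 12, without overlap. ERG, ETS1 and SOX7, factors that maintain endothelial identity, gave 0.16 ± 0.17 (adjusted p = 0.5803), -0.034 ± 0.13 (adjusted p = 0.894) and -0.21 ± 0.14 (adjusted p = 0.326, 0.04703 with the block). Of the 9 members 2 rose and 1, FLI1, fell (3 and 2 with the block), with a median of -0.034.

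Among genes of veins and lymphatics 5 rose and 0 fell of 10 tested (7 and 1 with the block), with a median log2 fold change of 0.88 (8.57 % of all tested genes rose). They summed to 3259.5 to 4036 CPM at day 7 and 5325 to 7554 at day 12. PROX1, the factor that specifies lymphatic endothelium, was at 15.1, 17.3, 18.2 and 13.5 CPM at day 7 and 30.8, 65.3, 71.3 and 38.7 at day 12 and changed by 1.69 ± 0.295 (adjusted p = 0.000163). NR2F2, the nuclear receptor of venous fate that represses Notch signalling, was at 94.1, 107, 148 and 96.5 CPM at day 7 and 295, 436, 410.1 and 265 at day 12 and changed by 1.66 ± 0.27 (adjusted p = 8.25e-05). Neither gene overlapped between the days. The ectoenzyme NT5E rose by 0.96 ± 0.23, the apelin receptor APLNR by 1.14 ± 0.37 and NRP2, the co-receptor of VEGF-C, by 0.79 ± 0.23. FLT4, the receptor of VEGF-C itself, gave 0.29 ± 0.16 (adjusted p = 0.2403, 0.0173 to 0.0392 in 2 other fits) and EPHB4, the venous ephrin receptor, 0.25 ± 0.13 (adjusted p = 0.177, 0.0191 with the block). With day 7 replicate 1, day 12 replicate 2 or day 12 replicate 3 left out, 3 of the list rose. APLNR lost its call without day 7 replicate 1, 3 or 4 or day 12 replicate 2 or 3 (0.0505 to 0.0864) and in DESeq2 (0.072), and NRP2 without day 7 replicate 1 or day 12 replicate 2 or 3 (0.0503 to 0.0563).

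Of the sinusoidal and scavenger list 4 rose and 0 fell of 10 tested (12 listed), with a median log2 fold change of 1.204. LYVE1 was 1 of them. STAB2, the hyaluronan scavenger receptor of liver and spleen sinusoids, was at 44.9, 52.6, 187 and 44.5 CPM at day 7 and 319, 608, 979 and 720.4 at day 12, where replicate 3 of day 7 stood apart from the other 3 and overlap was still absent. It rose by 2.996 ± 0.702 (adjusted p = 0.00324). CLEC4M, a lectin of liver sinusoids, and GPIHBP1, which anchors lipoprotein lipase on capillaries, rose by 3.69 ± 0.68 and 3.64 ± 0.45 from below 1 CPM (0.0701 ± 0.0825 to 1.04 ± 0.553 CPM and 0.372 ± 0.154 to 4.71 ± 1.44 CPM). STAB1, the paralog of STAB2, was at 688, 682, 643 and 688 CPM at day 7 and 528, 655, 631 and 769 at day 12 and gave -0.065 ± 0.22 (adjusted p = 0.883). The diaphragm protein PLVAP and the mannose receptor MRC1 gave 0.11 ± 0.14 (adjusted p = 0.646) and -0.058 ± 0.34 (adjusted p = 0.934).

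The flow-responsive list, which includes KLF4, held 5 risers among 9 tested and no gene that fell, at a median of 1.02. KLF2, the other factor induced by shear stress, was at 31.9, 51.8, 37.5 and 44.5 CPM at day 7 and 111, 216, 234 and 151 at day 12 and rose by 2.103 ± 0.33 (adjusted p = 3.79e-05), without overlap. CYP1B1, a cytochrome induced by flow, rose by 2.59 ± 0.53, thrombomodulin (THBD) by 1.02 ± 0.34 and the matricellular gene CCN3 by 3.53 ± 0.82 from 5 counts over day 7. NOS3, the endothelial nitric oxide synthase and a known target of KLF2, was at 161, 188, 138 and 169.6 CPM at day 7 and 108, 173, 159 and 175 at day 12 and gave -0.098 ± 0.17 (adjusted p = 0.763). THBD lost its call without day 7 replicate 1, 3 or 4 or day 12 replicate 2 or 3 (0.0632 to 0.118).

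Among VEGF and angiopoietin genes 3 rose and 1 fell of 13 tested (5 and 2 with the block), with a median log2 fold change of 0.18. VEGFC, the lymphatic growth factor, was at 3.32, 3.14, 2.93 and 14.6 CPM at day 7 and 41.1, 20.7, 28.8 and 58.9 at day 12, with replicate 4 of day 7 well above the other 3, and rose by 2.64 ± 0.47 (adjusted p = 0.000199). The placental growth factor PGF rose by 0.95 ± 0.31, and ANGPT2, the context-dependent ligand of TEK, fell by 0.999 ± 0.26. FLT1, the decoy receptor of VEGF, gave -0.32 ± 0.14 (adjusted p = 0.132, 0.0188 with the block). In the tip cell list 4 rose and 2 fell of 9 tested, with a median log2 fold change of 0.54. APLN, the apelin ligand of sprouting cells, was at 2.44, 2.897, 2.13 and 1.32 CPM at day 7 and 10.3, 28.6, 19.5 and 11.7 at day 12, a change of 2.99 ± 0.42 (adjusted p = 1.18e-05) without overlap. ESM1, a proteoglycan of tip cells, and PDGFB, which recruits pericytes, rose by 1.86 ± 0.53 and 0.84 ± 0.29, while the channel subunit KCNE3 fell by 0.66 ± 0.22. The number of VEGF list genes that rose was 1 without day 7 replicate 1, day 12 replicate 2 or day 12 replicate 3, and none fell without day 7 replicate 4. In the tip cell list 2 rose without day 7 replicate 1 or day 12 replicate 4. PGF lost its call without day 7 replicate 1 or 4 or day 12 replicate 2 or 3 (0.0714 to 0.149), ANGPT2 without day 7 replicate 4 (0.0681) and in limma on log2 RPKM (0.0675), and ESM1 without day 12 replicate 4 (0.0571). PDGFB lost its call without day 7 replicate 1, 2 or 3 or day 12 replicate 1 or 4 (0.0647 to 0.13), and KCNE3 with any library left out but day 12 replicate 3 (0.052 to 0.114) and in limma on log2 RPKM (0.0553).

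Of the coagulation list 3 rose and 1 fell of 12 tested (4 and 3 with the block), with a median log2 fold change of 0.13. PLAU, the plasminogen activator urokinase, fell by 1.66 ± 0.23 and was at 29.3, 24.97, 16.8 and 28.2 CPM at day 7 and 9.56, 7.42, 6.88 and 7.47 at day 12. TFPI2, a serine protease inhibitor of the matrix, was at 7.196, 14.6, 10.7 and 6.62 CPM at day 7 and 31.8, 38.96, 39.8 and 38.2 at day 12 and rose by 1.93 ± 0.28. VWF, the platelet adhesion protein of endothelium, gave -0.29 ± 0.19 (adjusted p = 0.345) and TFPI 0.16 ± 0.21 (adjusted p = 0.662). Genes of inflammatory activation gave 1 call, a fall, among 11 tested (12 listed; 1 rose and 3 fell with the block), at a median of -0.41. VCAM1, a leukocyte adhesion molecule, had 25 counts over day 7 and 3 over day 12, a ratio of 8.01 (95 % counting interval 2.44 to 41.5) lower. ICAM1 gave 0.61 ± 0.28 (adjusted p = 0.132, 0.0195 to 0.0348 in 2 other fits). VCAM1 lost its call in limma on log2 RPKM (0.224).

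Of basement membrane genes 5 rose and 0 fell of 13 tested (6 and 1 with the block), with a median log2 fold change of 0.21. LAMA4, the laminin chain of endothelial basement membrane, was at 4.44, 3.76, 3.25 and 5.78 CPM at day 7 and 44.4, 155, 155 and 71.02 at day 12 and rose by 4.63 ± 0.47 (adjusted p = 9.99e-08). FN1 (fibronectin) was at 975, 1513, 1089 and 1189 CPM at day 7 and 2605, 2947, 3199.6 and 3944 at day 12 (1.41 ± 0.31), and COL15A1, a collagen next to basement membranes, rose by 1.39 ± 0.27. In these 3 genes every library of day 12 exceeded every library of day 7. LAMC1 and LAMB1, the chains that pair with LAMA4, rose by 0.42 ± 0.11 and 0.42 ± 0.14. COL4A1, a chain of collagen IV, gave 0.21 ± 0.14 (adjusted p = 0.338), and perlecan (HSPG2) gave 0.52 ± 0.24 (adjusted p = 0.141, 0.000983 to 0.00981 in 2 other fits). LAMB1 lost its call with any library left out but day 7 replicate 4 or day 12 replicate 1 (0.0619 to 0.109).

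In TGF-beta and BMP signalling 5 rose and 1 fell of 16 tested (6 and 3 with the block), with a median log2 fold change of 0.13. BAMBI, a pseudoreceptor that blocks TGF-beta signalling, was at 204, 268, 262 and 241 CPM at day 7 and 76.8, 57.4, 55.7 and 65.7 at day 12 and fell by 1.93 ± 0.19 (adjusted p = 6.01e-08). The receptor TGFBR2 went from 148 ± 8.96 to 263 ± 35.5 CPM (0.83 ± 0.14). CCN2, a matrix target of TGF-beta and YAP, rose by 2.405 ± 0.47, and the ligands BMP2 and BMP6 by 1.48 ± 0.23 and 0.73 ± 0.24. The BMP modulator BMPER rose by 0.81 ± 0.28. With any 1 of day 7 replicates 1, 2 and 3 and day 12 replicates 1 and 4 left out, 3 members rose. BMP6 lost its call without day 7 replicate 1, 2 or 3 or day 12 replicate 1 or 4 (0.0501 to 0.179), and BMPER with any library left out but day 12 replicate 2 (0.0678 to 0.142) and in limma on log2 RPKM (0.0915).

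Mesenchymal markers moved in both directions. Of that list 3 rose and 2 fell of 13 tested, with a median log2 fold change of 0.18. The small proteoglycans LUM and DCN rose by 2.34 ± 0.45 and 1.696 ± 0.31, DCN from 3.71 ± 1.11 to 11.98 ± 5.39 CPM, and the collagen I chain COL1A1 rose by 1.74 ± 0.57, while its partner COL1A2 gave -0.24 ± 0.33 (adjusted p = 0.681). PRRX1, a factor of limb mesenchyme, and ACTA2, smooth muscle actin, fell by 1.08 ± 0.36 and 1.04 ± 0.31. Among epithelial genes the claudin CLDN6 rose by 2.17 ± 0.68, and EPCAM gave 0.44 ± 0.26 (adjusted p = 0.266, 0.0408 with the block). COL1A1 lost its call without day 7 replicate 1, 3 or 4 or day 12 replicate 1 or 3 (0.0521 to 0.109), PRRX1 without day 7 replicate 2 or 4 or day 12 replicate 2, 3 or 4 (0.0854 to 0.159) and in limma on log2 RPKM (0.128), and ACTA2 without day 7 replicate 4 or day 12 replicate 3 (0.077 to 0.0792). CLDN6 lost its call without day 7 replicate 1, 2 or 3 or day 12 replicate 4 (0.0671 to 0.088) and in limma on log2 RPKM (0.107).

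Genes of retinoic acid synthesis, transport and reception fell. Of the list 1 rose and 7 fell of 13 tested (14 listed; 2 and 8 with the block), with a median log2 fold change of -0.67, against 9.23 % of all tested genes that fell. It summed to 299.7 to 391 CPM at day 7 and 196 to 215 at day 12. ALDH1A2, the main enzyme that makes retinoic acid in the embryo, was at 103, 139, 88.9 and 108 CPM at day 7 and 27.3, 36.3, 23.5 and 27.8 at day 12 and fell by 1.93 ± 0.21 (adjusted p = 2.94e-07). STRA6, the retinol importer, was at 46.3, 50.9, 30.5 and 39.5 CPM at day 7 and 18.5, 26.6, 13.99 and 13.8 at day 12 and fell by 1.199 ± 0.198. Of the genes that retinoic acid itself induces, the degrading enzyme CYP26B1 fell by 1.601 ± 0.42, the reductase DHRS3 by 1.68 ± 0.38 and the receptor RARB by 1.181 ± 0.32. CRABP2, which carries retinoic acid to the nucleus, was at 9.76, 10.2, 6.71 and 9.39 CPM at day 7 and 2.34, 1.46, 1.79 and 2.26 at day 12 and fell by 2.19 ± 0.32. Its paralog CRABP1 rose, from 0.843 ± 0.104 to 2.899 ± 1.85 CPM (1.78 ± 0.53). CRABP1 lost its call without day 7 replicate 1 or day 12 replicate 1 (0.0501 to 0.0836) and in limma on log2 RPKM (0.0725).

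Of the Wnt targets and inhibitors 1 rose and 5 fell of 11 tested (12 listed), with a median log2 fold change of -0.47. SP5, a direct target of beta-catenin, was at 4.44, 2.47, 1.76 and 2.47 CPM at day 7 and 0.111, 0.0663, 0 and 0.137 at day 12, or 185 counts against 5, and fell by 5.03 ± 0.47 (adjusted p = 5.23e-08). The feedback inhibitors RNF43, NKD1 and AXIN2 fell by 1.33 ± 0.26, 0.81 ± 0.23 and 0.47 ± 0.15, and the factor TCF7 by 0.78 ± 0.21. SFRP1, a secreted Wnt antagonist, rose by 0.58 ± 0.16, and LEF1 gave -0.24 ± 0.197 (adjusted p = 0.454). Without day 7 replicate 2 or day 12 replicate 3, 3 of the list fell. RNF43 lost its call in limma on log2 RPKM (0.0701), NKD1 without day 7 replicate 3 or day 12 replicate 4 (0.054 to 0.0562), and AXIN2 without day 7 replicate 1, 2 or 4 or day 12 replicate 2 or 3 (0.0571 to 0.125). TCF7 lost its call without day 7 replicate 2 or day 12 replicate 3 (0.0613 to 0.0627) and in a fit of the 8 libraries alone (0.0509).

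HOX genes that pattern the body axis fell in the HOXA and HOXB clusters. In HOXA 0 rose and 5 fell of 11 tested (0 and 8 with the block), with a median log2 fold change of -0.67. HOXA9, a factor needed by blood stem cells, was at 162, 160.4, 210.5 and 206 CPM at day 7 and 111, 97.9, 92.8 and 109 at day 12 and fell by 0.85 ± 0.22, and its reads overlap those of HOXA10 on the same strand. HOXA6, HOXA5 and HOXA3 fell by 1.41 ± 0.25, 1.09 ± 0.22 and 0.85 ± 0.199, and HOXA10 by 0.62 ± 0.21. HOXA6 and HOXA5 each overlap HOXA3 on the same strand, so their reads are not independent of those of HOXA3. At the 5′ end of the cluster HOXA11 gave -0.22 ± 0.25 (adjusted p = 0.6196) and HOXA13 -0.67 ± 0.25 (adjusted p = 0.0604, 0.00316 to 0.0467 in 5 other fits). In HOXB 0 rose and 4 fell of 8 tested (9 listed), with a median log2 fold change of -0.397. HOXB9 was at 439, 415, 475 and 467 CPM at day 7 and 168, 214, 225 and 183 at day 12 and fell by 1.183 ± 0.202, HOXB4, which can expand blood stem cells, by 1.04 ± 0.21, HOXB2 by 0.93 ± 0.27 and HOXB3 by 0.63 ± 0.18. HOXB6 gave -0.094 ± 0.19 (adjusted p = 0.793). The highest library of day 12 stayed below the lowest of day 7 in HOXA9 and HOXB9. HOXA10 lost its call without day 7 replicate 2 or 4 or day 12 replicate 1, 2 or 3 (0.0669 to 0.139), HOXB2 without day 12 replicate 3 (0.0588), and HOXB3 without day 7 replicate 4 or day 12 replicate 1 (0.0501 to 0.0542).

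Part of the list called embryonic RNA-binding program, which also holds chromatin genes, fell as well. Of the list 0 rose and 5 fell of 10 tested, with a median log2 fold change of -0.29. LIN28A, which blocks maturation of the let-7 microRNA, was at 309, 350.2, 349.7 and 305 CPM at day 7 and 79.2, 38.6, 34.2 and 54.4 at day 12 and fell by 2.67 ± 0.41 (adjusted p = 2.92e-05). HMGA1, a chromatin protein of dividing embryonic cells, was at 432, 536, 425 and 439.5 CPM at day 7 and 282, 274, 229.9 and 247 at day 12 (-0.83 ± 0.13). DNMT3B, a de novo DNA methyltransferase, fell by 0.62 ± 0.15, TRIM71 by 0.55 ± 0.14 and SALL4 by 0.28 ± 0.088. HMGA2, a let-7 target, gave 0.19 ± 0.195 (adjusted p = 0.574). Of the RNA-binding members LIN28A and TRIM71 fell, while those of the IGF2BP family did not pass. LIN28A and HMGA1 did not overlap between the days. SALL4 lost its call without day 7 replicate 1 or 4 or day 12 replicate 1 or 3 (0.0669 to 0.125) and without the filter on low counts (0.154).

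Haematopoietic genes were mixed. Of the transcription factors 2 rose and 4 fell of 17 tested, with a median log2 fold change of -0.16. RUNX1, the factor of blood emergence, was at 89.8, 91.2, 152 and 94.3 CPM at day 7 and 69.8, 35.1, 52.7 and 89.3 at day 12 and fell by 0.79 ± 0.23 (adjusted p = 0.0181), with replicate 3 of day 7 above the others. MYB, needed for definitive blood, was at 42.9, 43.5, 55.3 and 55.5 CPM at day 7 and 16.9, 16.2, 22.7 and 30.03 at day 12 and fell by 1.201 ± 0.21 (adjusted p = 0.000129). LMO2, a bridging factor of the TAL1 complex, was at 139.5, 133, 122 and 132 CPM at day 7 and 206, 228, 261 and 211 at day 12 and rose by 0.78 ± 0.13, and the corepressor CBFA2T3 rose by 1.54 ± 0.28. The other members that fell were ZFPM1, the partner of GATA factors (-0.56 ± 0.15), and MEIS1, a HOX cofactor (-0.47 ± 0.14). TAL1 gave -0.16 ± 0.13 (adjusted p = 0.442). MYB lay clearly apart between the days, and RUNX1 narrowly so. Without day 12 replicate 2 or 3, 2 factors fell. RUNX1 lost its call without day 7 replicate 3 or day 12 replicate 2 or 3 (0.0706 to 0.1), and MEIS1 without day 7 replicate 4 or day 12 replicate 2 or 3 (0.0838 to 0.09).

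Of genes known from haematopoietic stem cells 2 rose and 5 fell of 9 tested, with a median log2 fold change of -0.75. MYCN, a growth-promoting factor, was at 119.8, 130.3, 141 and 134 CPM at day 7 and 69.95, 40.5, 41.2 and 79.1 at day 12 and fell by 1.19 ± 0.25. MLLT3, which maintains stem cell self-renewal in culture, and the RNA-binding protein MSI2 fell by 0.75 ± 0.14 and 0.76 ± 0.19. BCL11A, the repressor of fetal globin, and HLF, a stem cell factor, rose by 1.96 ± 0.32 and 1.099 ± 0.35, BCL11A from 1.505 ± 0.346 to 5.91 ± 1.603 CPM. MECOM, a factor of stem cells and of arterial endothelium, gave 0.27 ± 0.22 (adjusted p = 0.443). The list therefore did not move as 1 unit. HLF lost its call without day 7 replicate 1, 2 or 4 or day 12 replicate 3 or 4 (0.0504 to 0.098).

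The summed levels of leukocyte genes, given above, overlapped between the days. In that list 2 rose and 1 fell of 14 tested (2 and 2 with the block), with a median log2 fold change of 0.298. PTPRC, the pan-leukocyte phosphatase CD45, had 1 count over day 7 and 57 over day 12, a ratio of 59.3 (95 % counting interval 10.2 to 2383) higher, at 0.222, 0.795, 2.02 and 0.411 CPM in the libraries of day 12 against a mean of 73.96 in SOX17+ CD43+ cells. RAC2, a GTPase of blood cells, fell by 0.94 ± 0.24 and the actin regulator CORO1A rose by 0.701 ± 0.21. LAPTM5, a lysosomal protein of blood cells, gave 0.14 ± 0.13 (adjusted p = 0.519). The granule protease CPA3 of mast cells had 26 counts over day 7 and 1 over day 12, a ratio of 24.99 (95 % counting interval 4.11 to 1025) lower. The neutrophil granule genes AZU1 and MPO went from 1.04 ± 0.218 to 0.288 ± 0.135 CPM (-1.81 ± 0.41) and from 0.257 ± 0.168 to 0.751 ± 0.482 CPM (1.53 ± 0.52). Of megakaryocyte and erythroid genes GP1BB, a platelet glycoprotein, and EPOR, the erythropoietin receptor, rose by 1.15 ± 0.304 and 0.58 ± 0.19. GP1BB overlaps SEPTIN5 and EPOR overlaps RGL3 on the same strand, so the source of these reads is uncertain. Of the 14 listed genes 11 stayed under 1 CPM in all 8 libraries. PTPRC lost its call in limma on log2 RPKM (0.31), CORO1A without day 7 replicate 2 or day 12 replicate 2 or 3 (0.0521 to 0.0856) and in limma on log2 RPKM (0.111), and CPA3 in limma on log2 RPKM (0.104). MPO lost its call without day 7 replicate 2 or 3 or day 12 replicate 2 or 3 (0.116 to 0.162) and in limma on log2 RPKM (0.255), and EPOR without day 7 replicate 1 or 2 or day 12 replicate 2, 3 or 4 (0.0538 to 0.106).

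Cell cycle genes fell in WT. Of 18 mitosis genes 14 fell and none rose, at a median of -0.801, and of 17 DNA replication genes 11 fell and none rose, at a median of -0.596. All 35 had a negative fold change. PLK1, the kinase that drives mitotic entry, was at 28.7, 42.6, 27.2 and 30.8 CPM at day 7 and 19.7, 17.8, 11.3 and 12.3 at day 12 and fell by 1.08 ± 0.26 (adjusted p = 0.00405). BIRC5 (survivin), of the chromosomal passenger complex, was at 30.04, 47.4, 34.3 and 30.7 CPM at day 7 and 21.6, 17.96, 10.4 and 12.3 at day 12 and fell by 1.19 ± 0.31. Neither overlapped, and replicates 3 and 4 were the lowest libraries of day 12 in both. The kinetochore protein CENPF fell by 0.88 ± 0.22, the kinase AURKB by 1.02 ± 0.28, CDC20, which activates the anaphase-promoting complex, by 1.03 ± 0.33 and the cyclin CCNB2 by 0.896 ± 0.28. CDK1, the kinase partner of CCNB2, gave -0.6997 ± 0.28 (adjusted p = 0.0898, 0.00332 to 0.0388 in 4 other fits), and KIF20A -0.76 ± 0.28 (adjusted p = 0.0545, 0.00545 to 0.0469 in 6 other fits). AURKB lost its call without day 7 replicate 2 or day 12 replicate 3 (0.0502 to 0.0558), CDC20 without day 7 replicate 2 or 4 or day 12 replicate 3 or 4 (0.0524 to 0.122), and CCNB2 without day 7 replicate 2 or 4 or day 12 replicate 3 or 4 (0.0506 to 0.112).

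Of the replication genes, the licensing factors CDT1 and CDC6 kept their calls in every fit. CDT1 was at 29.04, 30.02, 19.98 and 26.5 CPM at day 7 and 13.6, 14.7, 7.34 and 8.43 at day 12 and fell by 1.26 ± 0.22 (adjusted p = 0.000155). CDC6 was at 23.3, 32.4, 26 and 19.98 CPM at day 7 and 16.2, 15.2, 6.82 and 12.6 at day 12 and fell by 1.005 ± 0.23 (adjusted p = 0.002997). Both lay apart between the days. The nucleotide reductase RRM2 fell by 0.91 ± 0.28, thymidylate synthase (TYMS) by 0.63 ± 0.22, and the helicase subunits GINS2 and GINS1 by 0.795 ± 0.23 and 0.67 ± 0.23. MCM7, MCM5 and the sliding clamp PCNA gave -0.13 ± 0.15 (adjusted p = 0.616), -0.38 ± 0.15 (adjusted p = 0.0769, 0.0032 to 0.0318 in 2 other fits) and -0.49 ± 0.19 (adjusted p = 0.0664, 0.01 to 0.0407 in 4 other fits). RRM2 lost its call without day 7 replicate 2 or day 12 replicate 3 or 4 (0.071 to 0.109), TYMS without day 7 replicate 1, 2 or 3 or day 12 replicate 3 or 4 (0.0544 to 0.198) and with median-of-ratios size factors (0.05) and in limma on log2 RPKM (0.051), and GINS2 without day 7 replicate 2 or day 12 replicate 3 (0.0751 to 0.087). GINS1 lost its call with any library left out but day 7 replicate 4 or day 12 replicate 1 (0.0682 to 0.18).

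These counts rest on few libraries and differ between fits. With the replicate block 18 mitosis and 15 replication genes fell, in DESeq2 17 and 11, and in limma on log2 RPKM 14 and 8. Without day 12 replicate 1 they were 18 and 11. Mitosis genes that fell numbered 9 without day 7 replicate 1, 4 without day 7 replicate 2, 9 without day 7 replicate 3, 8 without day 7 replicate 4, 3 without day 12 replicate 3 and 4 without day 12 replicate 4. Replication genes that fell numbered 7 without day 7 replicate 1, 3 without day 7 replicate 2, 6 without day 7 replicate 3, 2 without day 12 replicate 3 and 6 without day 12 replicate 4. The summed mitosis list was at 952 to 1277 CPM at day 7 and 409.9 to 829 at day 12, and the replication list at 1007 to 1480.5 and 661 to 1009. Mitosis sums thus did not overlap between the days, and replication sums overlapped by the highest library of day 12 and the lowest of day 7. Of the inhibitors BTG2, an antiproliferative p53 target, was at 61.3, 62.6, 54.03 and 62.05 CPM at day 7 and 69.01, 164, 168 and 103 at day 12 and rose by 1.07 ± 0.25, and CDKN1B (p27) by 0.74 ± 0.18. CDKN1A (p21) did not rise with them, at -0.996 ± 0.37 (adjusted p = 0.0641, 0.000554 to 0.0349 in 4 other fits) and lower in all 4 pairs. That list had 2 risers and no gene that fell among 11 tested (3 and 2 with the block).

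**Figure D3:**
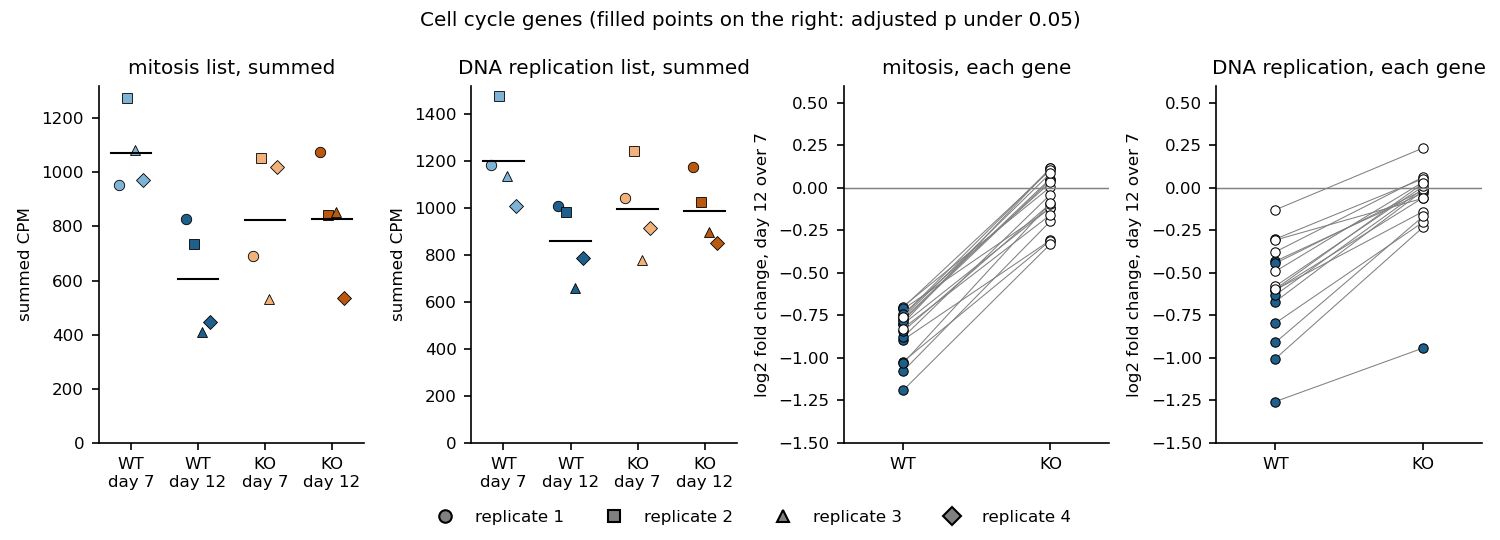
Summed CPM of the mitosis and DNA replication lists in each library (points, shape by replicate number; bars, group means), and the log2 fold change of each gene, day 12 over day 7, in WT and KO, joined by lines (filled points, adjusted p under 0.05). WT sums fall from 952 to 1277 CPM to 410 to 829 CPM for mitosis, whereas KO sums run from 531 to 1055 CPM at day 7 and 536 to 1074 CPM at day 12.

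Promoters are shown for genes of these lists because their members moved together. The 250 bases before the RefSeq start site (GRCh38.p14, plus strand for all 4) were searched on both strands for CCAAT and TTTGAA, the cell cycle homology region, in mitosis genes and for 3 E2F strings in replication genes, the first being TTTGGCG, the second its variant TTTCGCG, and the last the core string TTCCCGC. Capitals mark the matches. The promoters shown are those of PLK1 (chr16:23678639-23678888), CDC20 (chr1:43358731-43358980), CDT1 (chr16:88803539-88803788) and CDC6 (chr17:40287629-40287878).
PLK1: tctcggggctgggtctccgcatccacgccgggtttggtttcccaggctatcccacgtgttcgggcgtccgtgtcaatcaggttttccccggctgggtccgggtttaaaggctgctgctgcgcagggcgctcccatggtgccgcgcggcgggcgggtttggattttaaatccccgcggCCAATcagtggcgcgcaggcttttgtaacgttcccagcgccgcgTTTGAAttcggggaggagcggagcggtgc
CDC20: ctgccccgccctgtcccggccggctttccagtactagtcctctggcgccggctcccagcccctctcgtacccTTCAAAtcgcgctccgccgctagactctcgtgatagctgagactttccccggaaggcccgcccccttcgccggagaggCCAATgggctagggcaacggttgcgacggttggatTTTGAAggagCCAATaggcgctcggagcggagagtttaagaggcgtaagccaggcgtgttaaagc
CDT1: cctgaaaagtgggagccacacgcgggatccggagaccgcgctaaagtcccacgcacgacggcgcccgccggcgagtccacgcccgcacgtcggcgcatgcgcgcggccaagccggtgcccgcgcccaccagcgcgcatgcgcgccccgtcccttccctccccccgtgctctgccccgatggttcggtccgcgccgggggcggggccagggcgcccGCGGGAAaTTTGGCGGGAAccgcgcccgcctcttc
CDC6: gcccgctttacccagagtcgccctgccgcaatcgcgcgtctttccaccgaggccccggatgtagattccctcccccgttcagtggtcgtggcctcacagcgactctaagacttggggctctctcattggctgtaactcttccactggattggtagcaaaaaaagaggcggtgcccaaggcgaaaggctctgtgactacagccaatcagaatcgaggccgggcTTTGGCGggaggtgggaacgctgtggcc

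In PLK1 the TTTGAA starts 29 bases and the CCAAT 73 bases before the start site, and in CDC20 there are matches of both kinds, the nearest at 65 and 55 bases. The RefSeq table held promoters of 15 of the 18 mitosis genes and 14 of the 17 replication genes. The shares that follow were counted over 300 bases per promoter, of which 50 lie after the start site and are not shown. Of the 15 mitosis promoters 10 hold TTTGAA (15.4 % of all 27305 promoters), 13 hold CCAAT (35.7 % of all) and 9 hold both (6.08 % of all). In CDT1 the 3 matches begin 35, 27 and 23 bases before the start, and the latter pair overlap, and CDC6 has 1 match at 28 bases. Of the 14 replication promoters, 13 hold any of the E2F strings (9.39 % of all). The strings also occur in members that did not pass, such as CDK1, MCM7 and PCNA. These shares describe the lists as chosen and not the changes between the days. These are matches of letters, and binding was not measured.

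Of glycolysis genes 1 rose and 6 fell of 15 tested (1 and 11 with the block), with a median log2 fold change of -0.395. PFKP, the platelet phosphofructokinase, was at 46.8, 60.4, 38.7 and 48.6 CPM at day 7 and 25.6, 15.9, 12.8 and 18.03 at day 12 and fell by 1.42 ± 0.18 (adjusted p = 1.84e-06). The lactate exporter SLC16A3 fell by 0.97 ± 0.23, ENO1 by 0.58 ± 0.15, GAPDH by 0.58 ± 0.16, PKM by 0.53 ± 0.16 and ALDOA by 0.47 ± 0.14. SLC2A1, the glucose importer, rose by 0.92 ± 0.31, and PGK1 gave -0.27 ± 0.11 (adjusted p = 0.0848, 0.012 to 0.0236 in 2 other fits). PFKP had the largest change of the list, and its groups did not overlap. Without day 7 replicate 2 or day 12 replicate 3, 3 genes fell. GAPDH lost its call without day 7 replicate 2 or day 12 replicate 3 (0.0568 to 0.0677), PKM without day 7 replicate 2 or day 12 replicate 3 (0.0725 to 0.0987), and ALDOA without day 7 replicate 2 or day 12 replicate 3 (0.0718 to 0.0829). SLC2A1 lost its call without day 7 replicate 1, 3 or 4 or day 12 replicate 3 or 4 (0.0559 to 0.172) and in limma on log2 RPKM (0.0551).

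Of hypoxia response genes 4 rose and 0 fell of 10 tested (11 listed), with a median log2 fold change of 0.41. EGLN3, an oxygen-sensing prolyl hydroxylase, was at 2.63, 2.65, 2.24 and 2.89 CPM at day 7 and 7.01, 6.36, 11.6 and 9.39 at day 12 and rose by 1.72 ± 0.24 (adjusted p = 1.03e-05). The demethylase KDM3A rose by 0.54 ± 0.12, ANKRD37 by 0.86 ± 0.24 and the mitophagy receptor BNIP3 by 0.32 ± 0.11. DDIT4 gave -0.0089 ± 0.28 (adjusted p = 0.9901). Without day 12 replicate 3, 2 of the list rose. ANKRD37 lost its call without day 12 replicate 3 (0.0678), and BNIP3 with any library left out but day 7 replicate 3 (0.0508 to 0.122) and without the filter on low counts (0.217).

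Cholesterol synthesis had few calls, with 1 riser and 1 faller among 15 tested, and 13 of the 15 fold changes were positive. With the block 5 rose and 1 fell. No member rose without day 7 replicate 1, day 7 replicate 4, day 12 replicate 2 or day 12 replicate 3, and 2 rose without day 12 replicate 1. SC5D, the sterol desaturase near the end of the pathway, was at 303, 319, 464 and 329.9 CPM at day 7 and 153, 119, 161 and 150.1 at day 12 and fell by 1.28 ± 0.17 (adjusted p = 7.36e-06). Lanosterol synthase (LSS) rose by 0.69 ± 0.21. Transcripts of the 13 protein-coding genes of the mitochondrial genome took 4.86 ± 0.510 % of counts at day 7 and 3.98 ± 0.438 % at day 12, a difference of -0.885 percentage points (exact two-sided permutation test over 4 against 4 libraries, p = 0.0571, smallest possible 0.0286). That test leaves the pairs aside, and the share was lower at day 12 in all 4 replicate pairs. MT-CO3 was the one of them that passed (-0.48 ± 0.12), with the block 4 fell, and MT-CO1 gave -0.22 ± 0.12 (adjusted p = 0.202). LSS lost its call without day 7 replicate 1 or 4 or day 12 replicate 2 or 3 (0.0531 to 0.111), and MT-CO3 in limma on log2 RPKM (0.2).

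Among imprinted genes IGF2, the fetal growth factor that is also in the medium of day 4 to 8, was at 505, 1257, 547 and 881 CPM at day 7 and 3422, 2896, 2650.5 and 6919 at day 12 and rose by 2.32 ± 0.39 (adjusted p = 9.23e-05). Reads of IGF2 also overlap the read-through gene INS-IGF2. MEST fell by 0.58 ± 0.13, and GRB10, an inhibitor of growth factor receptors, gave 0.11 ± 0.105 (adjusted p = 0.544). In all 1 rose and 1 fell of 10 tested (12 listed; 3 and 3 with the block), with a median log2 fold change of 0.021. IGF2 libraries of day 12 lay above those of day 7 without overlap.

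Immediate early genes, which cells transcribe within minutes of a stimulus, were higher at day 12. Of the list 9 rose and 0 fell of 13 tested, with a median log2 fold change of 1.503, and the sums were 589 to 1067 and 1197 to 4146 CPM. FOS, the AP-1 subunit, was at 69.8, 50.98, 238 and 26.5 CPM at day 7 and 331, 998, 1183 and 163 at day 12 and rose by 2.79 ± 0.68 (adjusted p = 0.00435). NR4A1, an orphan nuclear receptor, was at 26.3, 39.4, 70.3 and 22.8 CPM at day 7 and 127, 489.6, 452 and 101 at day 12 (2.88 ± 0.5999), and DUSP1, the phosphatase that ends MAP kinase signals, at 35.98, 35.1, 77.9 and 25.04 CPM at day 7 and 182, 408, 514 and 138 at day 12 (2.83 ± 0.44, adjusted p = 3.40e-05). Replicates 2 and 3 were the highest libraries of day 12 in each of these genes, and replicate 3 was the highest of day 7. FOSB rose by 3.12 ± 0.85, EGR2 by 2.595 ± 0.603, JUNB by 1.503 ± 0.28, EGR1 by 1.43 ± 0.39 and JUN by 1.03 ± 0.24. FOS and FOSB overlapped between the days. The heat shock gene HSPA1A gave 0.22 ± 0.33 (adjusted p = 0.715) and ATF3 1.38 ± 0.499 (adjusted p = 0.0548, 0.00219 to 0.0495 in 5 other fits). EGR1 lost its call without day 12 replicate 3 (0.0644).

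**Figure D4:**
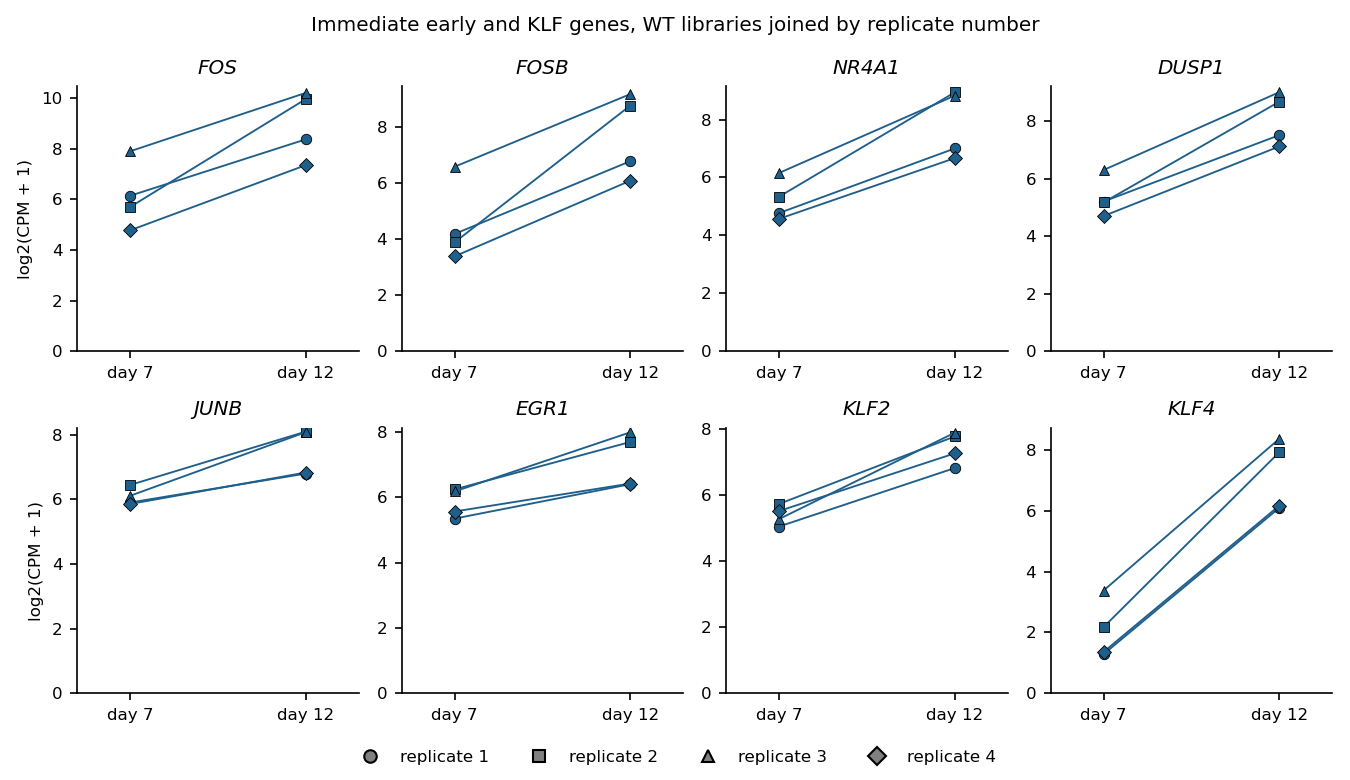
Level of immediate early genes and of KLF2 and KLF4 in the WT libraries, as log2(CPM + 1), with lines joining day 7 and day 12 libraries of the same replicate number. Every line rises, and replicates 2 and 3 lie highest at day 12 in each panel.

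The flow-responsive genes KLF2 and KLF4 shared this order of the day 12 libraries, as the plot by replicate number shows. LYVE1 also had its highest libraries of day 12 in replicates 2 and 3, and STAB2 in replicates 3 and 4. The part of the immediate early levels in the other changes was not tested.

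Interferon-stimulated genes split into members that rose and fell. Of the list 7 rose and 2 fell of 15 tested, with a median log2 fold change of 0.55. Its summed level went the other way, from 706 to 808 CPM at day 7 to 567 to 695 at day 12, without overlap. IFI44L and IFI44, neighbours that interferon induces, were at 0.0626, 0.3699, 0.693 and 0.1204 CPM at day 7 and 4.12, 8.81, 29.5 and 3.84 at day 12 and at 0.313, 0.3699, 0.4796 and 0.0602 CPM at day 7 and 2.45, 5.17, 13.99 and 3.29 at day 12. They rose by 5.14 ± 0.71 (adjusted p = 9.47e-06) and 4.3 ± 0.65 (adjusted p = 2.86e-05), without overlap. OAS1, a sensor of double-stranded RNA, rose by 1.91 ± 0.39, the antiviral GTPase MX1 by 1.41 ± 0.297, IFI6 by 0.99 ± 0.22 and IFIT2 by 0.79 ± 0.27. IFITM1, a membrane protein that blocks virus entry, was at 7.01, 10.1, 7.25 and 6.14 CPM at day 7 and 3.73, 2.72, 4.91 and 2.26 at day 12 and fell by 1.15 ± 0.32. Tetherin (BST2) fell by 0.59 ± 0.18. IFITM3, another membrane protein of this family, gave -0.28 ± 0.17 (adjusted p = 0.279). IFIT2 lost its call with any library left out but day 7 replicate 1 or day 12 replicate 1 (0.0753 to 0.104) and in limma on log2 RPKM (0.0646), IFITM1 without day 7 replicate 2 (0.0547), and BST2 without day 7 replicate 4 or day 12 replicate 2 or 3 (0.0627 to 0.0691).

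The promoters of IFI44L (chr1:78620198-78620447), IFI44 (chr1:78649539-78649788) and IFITM1 (chr11:313790-314039), 250 bases before the RefSeq start in GRCh38.p14 on the plus strand, show 2 members that rose beside 1 that fell. The string GAAANNGAAA, part of the interferon response element, was searched on both strands after the values had been seen. Capitals mark its matches.
IFI44L: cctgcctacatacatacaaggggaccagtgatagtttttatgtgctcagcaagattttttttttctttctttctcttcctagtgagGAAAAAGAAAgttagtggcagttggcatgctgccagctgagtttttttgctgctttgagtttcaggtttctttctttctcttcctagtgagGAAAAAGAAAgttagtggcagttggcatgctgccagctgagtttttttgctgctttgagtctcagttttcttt
IFI44: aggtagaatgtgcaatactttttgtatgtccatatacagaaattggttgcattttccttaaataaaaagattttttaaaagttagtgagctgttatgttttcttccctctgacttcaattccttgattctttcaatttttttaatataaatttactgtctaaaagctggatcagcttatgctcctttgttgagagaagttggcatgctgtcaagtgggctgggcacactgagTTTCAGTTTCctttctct
IFITM1: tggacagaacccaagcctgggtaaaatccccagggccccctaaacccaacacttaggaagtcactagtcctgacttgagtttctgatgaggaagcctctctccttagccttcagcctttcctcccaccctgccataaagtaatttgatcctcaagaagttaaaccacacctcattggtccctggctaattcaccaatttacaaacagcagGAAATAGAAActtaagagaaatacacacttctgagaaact

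IFI44L has 2 matches, 164 and 73 bases before the start, IFI44 has 1 at 18 bases and IFITM1 has 1 at 40 bases. Over 300 bases per promoter, 50 of them after the start, the string occurs in 11 of the 12 promoters of the list. It occurs in 3.65 % of all 27305. The string is thus shared by members that rose and by members that fell. Immediate early promoters were searched over the same 300 bases, also added later. The CArG box was found in 1 of 12 (1.29 % of all). TGACG, the core of the cyclic AMP response element, was found in 8 of 12 (25 % of all).

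Antigen presentation changed in parts. Of MHC class II genes 2 rose and 3 fell of 9 tested, with a median log2 fold change of -0.019. HLA-DRA, the alpha chain of HLA-DR, was at 0.751, 0.247, 0.266 and 0.602 CPM at day 7 and 1.61, 2.58, 4.45 and 3.08 at day 12 and rose by 2.65 ± 0.48 (adjusted p = 0.000218). HLA-DMB, which helps load peptides, was at 5.51, 5.92, 3.36 and 6.56 CPM at day 7 and 15.8, 16.8, 14.2 and 27.97 at day 12 and rose by 1.81 ± 0.25 (adjusted p = 7.56e-06). The chains HLA-DQA1, HLA-DPB1 and HLA-DRB1 fell by 1.49 ± 0.35, 0.69 ± 0.18 and 0.56 ± 0.16, so that both chains of HLA-DR moved in opposite directions. Reads of HLA genes with near-identical sequence may be split between them. CD74, the invariant chain, gave -0.019 ± 0.18 (adjusted p = 0.962). In class I 2 rose and 1 fell of 11 tested (12 listed; 1 and 1 with the block), with a median log2 fold change of 0.016: the activator NLRC5 rose by 1.304 ± 0.39, the peptide transporter TAP1 by 0.93 ± 0.26, and HLA-C fell by 0.46 ± 0.14. HLA-E and B2M gave -0.28 ± 0.15 (adjusted p = 0.201) and -0.067 ± 0.12 (adjusted p = 0.765). HLA-DRB1 lost its call without day 7 replicate 1 or 2 or day 12 replicate 2 (0.0548 to 0.0592), NLRC5 without day 7 replicate 2 or day 12 replicate 3 or 4 (0.0592 to 0.124) and in limma on log2 RPKM (0.473), and TAP1 without day 12 replicate 3 or 4 (0.0553 to 0.0656). HLA-C lost its call without day 7 replicate 4 or day 12 replicate 1 (0.0779 to 0.0896).

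Outside the lists, the 12 largest rises among called genes without overlap, with a mean log2 CPM of at least 3 at day 12, held matrix and signalling genes. SMOC1, a matricellular protein that binds BMPs, was at 0.688, 0.555, 0.639 and 0.301 CPM at day 7 and 24.8, 63.3, 74.5 and 46.1 at day 12, a change of 6.55 ± 0.47 (adjusted p = 4.40e-10). THBS1, the antiangiogenic thrombospondin, was at 2.57, 1.66, 3.41 and 5.06 CPM at day 7 and 134, 58.8, 60.6 and 190.3 at day 12 (5.12 ± 0.67). NR4A2, a paralog of NR4A1, was at 0.626, 1.05, 2.56 and 0.662 CPM at day 7 and 7.17, 44.3, 79.2 and 10.3 at day 12 (4.804 ± 0.79). At day 12 replicates 1 and 4 were highest in THBS1, and replicates 2 and 3 in NR4A2. PRRG3 rose by 5.303 ± 0.33, the orphan receptor GPR50 by 5.85 ± 0.55, the guidance ligand SEMA3D by 4.297 ± 0.46 and CRYBG1 by 4.29 ± 0.33. The matrix genes MXRA5 and POSTN (periostin) rose by 4.25 ± 0.52 and 3.91 ± 0.597, the thyroid hormone receptor THRB by 4.14 ± 0.33, the exchange factor DOCK8 by 3.97 ± 0.38 and the potassium channel KCNJ5 by 3.92 ± 0.34.

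The 12 largest falls, with the same level at day 7, included a chemokine and a cadherin. CXCL5, a neutrophil chemokine, was at 51.6, 38.3, 49.1 and 16.2 CPM at day 7 and 2.22, 2.92, 2.37 and 3.02 at day 12, a change of -3.89 ± 0.34 (adjusted p = 1.19e-08). MCOLN3, a cation channel of endosomes, was at 27.5, 19.2, 22.7 and 21.2 CPM at day 7 and 2.502, 1.99, 2.14 and 1.85 at day 12 (-3.41 ± 0.19, adjusted p = 4.73e-12). CDH11, a mesenchymal cadherin, was at 113, 96.3, 89.9 and 90.6 CPM at day 7 and 18.5, 7.29, 9.25 and 13.9 at day 12 (-2.99 ± 0.35). In CXCL5 replicate 4 was the lowest library of day 7. AC010533.1 (-2.79 ± 0.41) overlaps CDH11 on the same strand, so their reads are not independent. AC004080.1 (chr7:27239243-27241228) and EVX1-AS (chr7:27241429-27247229), neighbours beyond the 5′ end of the HOXA cluster, fell by 3.31 ± 0.35 and 3.03 ± 0.34. The teneurin TENM1 fell by 2.96 ± 0.205, SMTNL1 by 2.803 ± 0.31, the glypican GPC3, which binds growth factors, by 2.72 ± 0.46 and the phosphodiesterase ENPP1 by 2.58 ± 0.34. GRIN2D, an NMDA receptor subunit, fell by 2.45 ± 0.23.

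In the KO line RUNX1 itself was read first. RUNX1 was at 38.3, 36.7, 28.9 and 42.5 CPM in the KO libraries of day 7 and 19.8, 9.37, 19.1 and 11.4 at day 12, and fell by 1.29 ± 0.25 (adjusted p = 0.000497). Only its DNA-binding domain is deleted, so counts over the whole gene do not check the genotype. In KO cells of the same gate 3052 of the 22978 genes changed between the days (13.3 %), 1378 upward (6 %) and 1674 downward (7.29 %), and 2387 of them had changed in WT in the same direction, which is 58.4 % of the WT calls and 78.2 % of the KO calls. P2RX1 was called in both with opposite signs. Of the 4090 WT calls 4012 (98.1 %) had the same sign in KO. These WT and KO contrasts share no library, but they share 1 fit and their replicate numbers: in both lines the summed immediate early genes of day 12 were highest in replicates 2 and 3. How far this sets the agreement was not tested.

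The 4 marker genes passed in KO too, with the signs of WT. LYVE1 gave 4.47 ± 0.65 in KO, LHX6 7.43 ± 0.64, KLF4 4.54 ± 0.66 and GAD1 -4.35 ± 0.39. GAD1 in KO was at 150.4, 155, 129 and 149 CPM at day 7 and 8.66, 2.19, 15.9 and 1.495 at day 12, again without overlap. FOS gave 2.76 ± 0.68, ALDH1A2 -1.79 ± 0.21, LIN28A -2.08 ± 0.396 and IGF2 1.76 ± 0.38 in KO, where each of them passed. By list, immediate early genes had 9 risers and no faller in KO, the counts of WT. The list called embryonic RNA-binding program had 5 fallers as in WT. Retinoic acid genes had 2 risers and 8 fallers, HOXA genes 6 fallers, HOXB genes 4 fallers, and venous and lymphatic genes 4 risers. Of arterial genes none rose and 2 fell in KO, and of interferon-stimulated genes 3 rose and 3 fell.

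When the difference between the day effects was tested, 1 gene passed (0.00435 % of 22978), and 561 had an unadjusted p under 0.05, fewer than the 1148.9 that is 0.05 of the genes. That gene was MYB. The number with an unadjusted p under 0.05 was 1117 of 20860 genes with the block and 1267 of 44120 without the filter on low counts. It does not measure how alike the day effects were. MYB in KO was at 33.3, 31.1, 20.5 and 39.3 CPM at day 7 and 2.87, 2.19, 2.61 and 3.49 at day 12, a change of -3.48 ± 0.25 against -1.201 ± 0.21 in WT. The difference of -2.28 ± 0.32 (adjusted p = 0.00256) placed the KO libraries of day 12 below all others. The count of genes that passed was 0 in limma on log2 RPKM, 8 in DESeq2, 11 without the filter on low counts, 6 without WT day 12 replicate 1 and 3 without KO day 7 replicate 4.

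The cell cycle lists had other counts in KO. There no mitosis gene of 18 and 1 replication gene of 17 passed, at medians of -0.065 and -0.018, and none of the 35 passed the test of the difference between the lines. Summed mitosis genes in KO were at 531 to 1055 CPM at day 7 and 536 to 1074 at day 12. PLK1 was at 16.8, 33.4, 15.9 and 32.5 CPM in KO at day 7 and 27.8, 23.6, 19.98 and 14.8 at day 12, overlapping, with a difference of 0.88 ± 0.36 (adjusted p = 1) between the lines. A difference in cell cycle genes between WT and KO over these days was therefore not detected gene by gene.

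**Figure D5:**
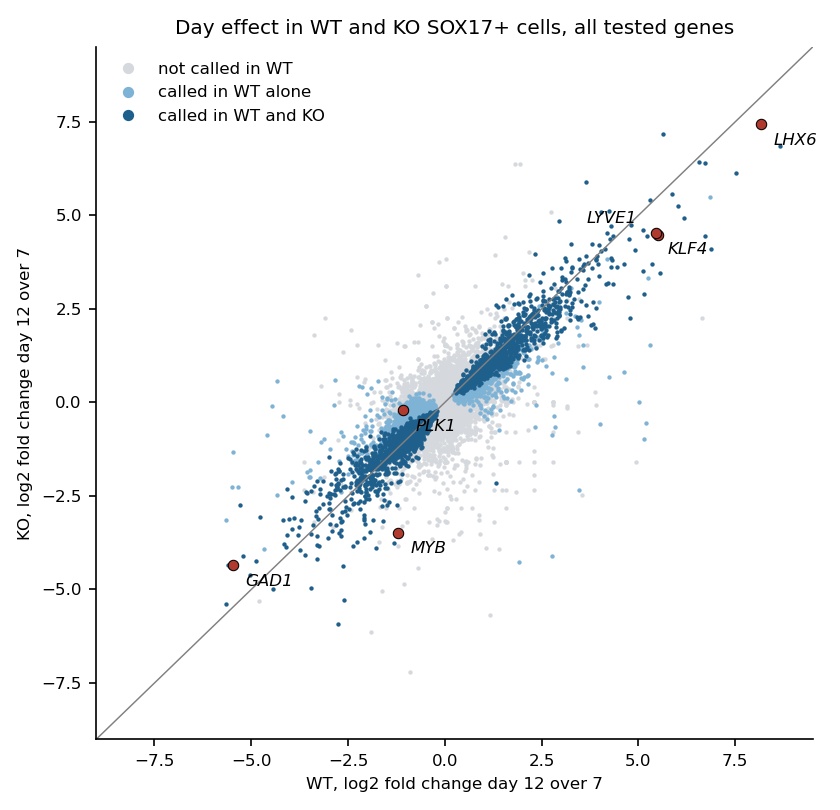
Log2 fold change of day 12 over day 7 in KO (vertical) against WT (horizontal) for all 22978 tested genes, with the diagonal of equal change. Dark blue genes passed in both lines, light blue genes in WT alone and grey genes not in WT. LYVE1, LHX6, KLF4 and GAD1 lie near the diagonal, and MYB lies below it.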

How the data were processed

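Raw fragment counts per gene, deposited by the authors, were used for 28 sorted libraries in groups of at least 2. The submitters' processing notes name cutadapt 1.18, featureCounts, R 3.2.2 and GRCh38, and they do not state whether counting used strand. A second table deposited by the authors holds log2 RPKM values (log2 of TMM-scaled RPKM plus 1, as the table is titled) and served as an alternative. Counts were fitted with edgeR 4.0.16 (R 4.3.3; TMM; filterByExpr with a minimum count of 10 and total of 15; quasi-likelihood F test; Benjamini-Hochberg adjustment over 22978 genes). SE is the absolute log2 fold change over the square root of F. Alternatives used DESeq2 1.42.0 and limma 3.58.1. On simulated data for the WT comparison (22690 genes) 34.3 % of 1.5-fold, 70.1 % of 2-fold and 93.9 % of 4-fold changes were recovered, with 4 false calls. Changes were set in 67, 67 and 66 genes averaging at least 10 counts, and no other gene differed between the days. Libraries were drawn without pairs. In the data 4090 genes passed, so recovery there need not equal these shares.

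Members, lists and families were chosen with earlier results of these data known. Named genes were the 4 markers, RUNX1, SOX17, CD34 and SPN; per list up to 6 called members of largest change in the main direction, 3 in the other and 3 uncalled of highest CPM; outside the lists the 12 largest rises and 12 largest falls; and MYB. P2RX1, EDN1, CXCL12, EGR1, JUN and the genes of the families were added after their values were seen. Some genes that this rule names are not reported here. Of 58302 gene IDs 58039 were matched to GENCODE 29, and 5379 of these carry a newer symbol. Of 260 named genes 171 overlap another annotated gene, 143 on the opposite strand, so some reads are uncertain. Replicate numbers were taken to pair WT libraries, since all 4 same-number pairs deviated together (r 0.198, 0.229, 0.186 and 0.318 across genes). In KO r was 0.165, 0.273, 0.0589 and 0.0607. The main fit had no block, so its calls and p-values leave the pairs aside. The fit with the block, which uses them, is among the alternatives.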

Additional observations from a re-analysis of the deposited data

Results flagged for a closer look

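In 27 of 520 groups of 4 libraries (each day of the 260 genes named) the highest or lowest library lay so far from the rest that its gap to the nearest library passed Dixon's 95 % limit for 4 values. Chance gives about 1 in 20 such groups where groups are independent, which is near the share found here. Genes of the same library are not independent, and 10 of the flags fell in 1 library. The part of chance was not tested. Replicate 3 of day 7 stood apart from the other 3 libraries of that day in 10 genes. RUNX1 had 152 CPM there (others 89.8 to 94.3) and JAG2 had 98.6 CPM there (others 139.5 to 148). STAB2 had 187 CPM there (others 44.5 to 52.6) and STAB1 had 643 CPM there (others 682 to 688). CCN2 had 2.19 CPM there (others 1.29 to 1.32) and BTG2 had 54.03 CPM there (others 61.3 to 62.6). DNMT3B had 153 CPM there (others 135 to 136) and GRB10 had 165 CPM there (others 180.4 to 182). SC5D had 464 CPM there (others 303 to 329.9) and FOSB had 94.4 CPM there (others 9.45 to 17.1). Replicate 4 of day 7 stood apart in 6 genes. GJA5 had 268 CPM there (others 109 to 122) and GPIHBP1 had 0.602 CPM there (others 0.266 to 0.313). CYP1B1 had 1.505 CPM there (others 0.555 to 0.688) and VEGFC had 14.6 CPM there (others 2.93 to 3.32). ANGPT2 had 5.66 CPM there (others 2.82 to 2.897) and LAMB1 had 293 CPM there (others 232 to 242). Replicate 2 of day 7 stood apart in 4 genes. PTPRC had 0.0616 CPM there (others 0 in each) and GINS2 had 24.1 CPM there (others 16.6 to 17.3). HMGA1 had 536 CPM there (others 425 to 439.5) and PKM had 516 CPM there (others 412 to 427). At day 7, replicate 1, IGF1 had 2.06 CPM (others 2.77 to 2.82). At day 12, replicate 1, ANGPT2 had 1.39 CPM (others 1.91 to 1.92) and LAPTM5 had 119.9 CPM (others 139.6 to 143). At day 12, replicate 2, CPA3 had 0.0663 CPM (others 0 in each) and HLA-DPB1 had 5.699 CPM (others 3.699 to 3.98). At day 12, replicate 4, JAG2 had 180.2 CPM (others 192 to 194) and ZFPM1 had 7.33 CPM (others 5.102 to 5.32).

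The day effect on MYB differed between the lines in a test of that difference, by -2.28 ± 0.32 (adjusted p = 0.00256) in edgeR, and MYB was lower at day 12 in all 4 libraries of each line.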

How the results depend on the processing

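Under the other settings of the analysis the number of genes changed in WT was 3933 to 6825, and 2822 to 3911 with 1 library left out (4090 as reported). The 6825 came from the replicate numbers as a block, which is the paired fit of the 8 libraries alone; without the block that fit gave 5303. The corresponding ranges for KO were 2908 to 3539 and 2202 to 2920. The number of genes whose day effect differed between the lines was 11 without the filter on low counts, 8 in DESeq2 and 0 in limma, and 1 to 6 with 1 library left out. List genes called numbered 161 to 245, and 122 to 181 with 1 library left out (178 as reported). The mitochondrial difference was -1.10 to -0.886 percentage points, and -1.10 to -0.710 with 1 library left out. Of the 260 named genes 206 were called. Of these 143 kept their call in every fit, 57 lost it with some 1 library left out and 22 under another setting. Of the 54 uncalled genes 21 passed in at least 1 other fit. No named gene reversed its direction where called. The cause of these shifts was not tested. Depth limits genes of few counts. Small changes were often not recovered in a simulation with far fewer changed genes than the data (34.3 % at 1.5-fold).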

Other observations

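Gene families, 14 in number, were chosen after their values had been seen, and some share members with the lists. They are descriptions, set beside 1605 risers and 1599 fallers among 15322 tested protein-coding genes.

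All 5 tested HOXD genes rose, against the falls in HOXA and HOXB. HOXD1 rose by 2.98 ± 0.73, HOXD4 by 2.48 ± 0.45, HOXD8 by 2.099 ± 0.37, HOXD3 by 2.03 ± 0.49 and HOXD9 by 1.42 ± 0.397. HOXD8 was at 1.69, 0.986, 2.08 and 4.15 CPM at day 7 and 6.84, 11.7, 12.1 and 7.68 at day 12. In KO all 5 rose as well, and 4 or 5 did under the other settings. Of 6 HOXC genes 3 fell, HOXC5 by 2.24 ± 0.47, HOXC4 by 1.67 ± 0.35, and HOXC6 fell by 1.403 ± 0.33. HOXC4 overlaps HOXC5 and HOXC6 on the same strand, and HOXD3 overlaps HOXD4, so their reads are not independent. The HOX clusters thus did not share 1 direction. HOXD9 lost its call without day 7 replicate 1 or day 12 replicate 2 (0.0528 to 0.0794).

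Of 5 CCN matricellular genes 4 rose (3 or 4 under other settings), among them CCN1, a target of YAP, by 2.72 ± 0.34. Of 9 laminins 5 rose and 2 fell, LAMC3 by 2.16 ± 0.34 and LAMA1, the laminin chain of early embryos, by 1.91 ± 0.33. EDN1, the vasoconstrictor endothelin, was at 2.38, 5.301, 11.9 and 6.44 CPM at day 7 and 76.1, 48.2, 62.5 and 56.01 at day 12 and rose by 3.21 ± 0.48 (adjusted p = 2.52e-05). CXCL12, the chemokine that retains blood stem cells in their niche, was at 2.44, 2.22, 2.19 and 2.83 CPM at day 7 and 22.2, 7.49, 17.8 and 14.7 at day 12 and rose by 2.69 ± 0.38 (adjusted p = 1.29e-05). Neither gene belonged to a list or family, and both were chosen after their values were seen.

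Of 19 dual-specificity phosphatase (DUSP) genes, which include ones that do not act on MAP kinases, 9 rose (6 to 9 under other settings). DUSP4 rose by 1.14 ± 0.28 and DUSP6, a feedback inhibitor of ERK, by 0.88 ± 0.17. The ERK-responsive factors ETV4 and ETV5 went the other way and fell by 1.47 ± 0.26 and 1.197 ± 0.22. KLF6, a relative of KLF2 and KLF4, rose by 1.51 ± 0.21, and of 15 KLF genes 5 rose and 1 fell.

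Among protease-activated receptors F2RL1 and F2RL2 fell by 1.74 ± 0.31 and 1.31 ± 0.19, and F2RL3 rose by 2.94 ± 0.42. IGF1 rose beside IGF2, by 2.04 ± 0.34, as did the binding protein IGFBP3 (2.62 ± 0.36). OAS2, of the interferon-induced synthetases, rose by 3.04 ± 0.396, and 3 of 4 OAS genes rose.

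Ribosomal protein genes fell in 27 of 83 members and rose in 1, at a median of -0.41. With the replicate block 69 fell, and other settings gave 10 to 69. Processed pseudogenes of all parent genes, some of which share sequence with ribosomal protein genes, had 17 risers and 105 fallers among 1397 tested. Of all tested genes 8.57 % rose and 9.23 % fell, so falls were no more frequent among these pseudogenes, and rises were rarer.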
